A study of Mus musculus with 12 samples.

Results

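The Irf8 locus was followed by DNA methylation in sorted mouse leukaemia cells, over 120 kb of chromosome 8 (build mm10, chr8:120700000-120820000) that hold the gene, the region before it and the enhancers known downstream of it. Members were chosen by position and depth: every CpG of the window with the calls of both strands summed, kept where no library had fewer than 10 calls. This kept 165 of the 1399 CpGs that any library listed in the window, out of 1052856 such CpGs in the whole data set. Irf8 lies on the plus strand at chr8:120736358-120756694. The window was divided by the gene into 4 stretches: 28 measured CpGs upstream (more than 1000 bp before the start), 47 in the island (within 1000 bp on each side of the start), 43 in the rest of the gene body and 47 downstream.

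The libraries are reduced representation bisulfite sequencing of genomic DNA, in which a read calls each CpG it crosses methylated or unmethylated and which favours CpG-dense restriction fragments. All cells are CMM cells, a GFP-positive mouse line labelled AML (acute myeloid leukaemia), injected by vein into C57BL/6 mice and sorted from spleen. CD11b-positive (n = 4) and CD11b-negative (n = 4) are the GFP-positive CMM cells of mice given CpG-STAT3dODN, split by surface CD11b, an integrin of mature myeloid cells encoded by Itgam. PBS (n = 4) are GFP-positive CMM cells of mice given PBS, called untreated by the labels, which were not split by CD11b. CpG-STAT3dODN joins an oligonucleotide that is taken up and sensed through TLR9 to a decoy binding site for the transcription factor STAT3. Injections began at about 1% GFP-positive cells in blood, were given every other day 3 times, and spleens were taken 1 day after the last. The labels do not say whether libraries come from separate mice, so p-values measure the spread between these libraries, and treatment and sorting by CD11b cannot be told apart in the comparisons with PBS. Within a bulk library, fewer cells with a methylated allele and less methylation per cell cannot be told apart either. The study's design text asks whether DNA methyltransferase levels differ in the CD11b-positive subset from the CD11b-negative bulk and from untreated cells.

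IRF8 is a transcription factor of the interferon regulatory factor family that directs myeloid progenitors towards monocytes and dendritic cells and restrains the making of neutrophils. It binds DNA mostly with partners, among them PU.1 (encoded by Spi1) and the AP-1 family protein BATF3. In mouse, enhancers at about +32, +41 and +56 kb from the gene start are known: the +32 kb enhancer works with BATF3 in dendritic cells, the +41 kb enhancer with E proteins in dendritic cell progenitors, and the +56 kb enhancer with PU.1 in myeloid cells. CpG islands at gene starts are normally unmethylated, whereas gene bodies are usually methylated.

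The 300 bases around the Irf8 start are shown because they hold the start itself and 23 measured CpGs of the island, and those around a start of the long noncoding RNA gene Gm33199 because they fall in the +56 kb enhancer window. Both come from RefSeq (GRCm38.p6, the same build as mm10), read 5′ to 3′ on the plus strand, and capitals mark the CpGs measured in all 12 libraries.
Irf8 start, chr8:120736108-120736407: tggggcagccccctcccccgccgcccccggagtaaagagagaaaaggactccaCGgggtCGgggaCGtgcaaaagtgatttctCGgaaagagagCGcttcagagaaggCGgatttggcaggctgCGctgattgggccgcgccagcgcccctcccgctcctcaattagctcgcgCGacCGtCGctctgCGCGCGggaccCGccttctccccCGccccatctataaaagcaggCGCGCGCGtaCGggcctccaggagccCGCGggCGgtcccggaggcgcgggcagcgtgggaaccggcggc
Gm33199 start, chr8:120791485-120791784: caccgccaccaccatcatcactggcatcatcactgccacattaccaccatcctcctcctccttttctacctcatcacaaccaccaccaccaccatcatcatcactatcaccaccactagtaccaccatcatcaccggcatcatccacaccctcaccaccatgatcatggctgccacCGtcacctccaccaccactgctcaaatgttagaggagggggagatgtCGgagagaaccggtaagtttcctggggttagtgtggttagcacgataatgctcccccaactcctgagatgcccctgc
The Irf8 sequence holds 38 CG pairs, of which 23 were measured, and the Gm33199 sequence holds 6, of which 2 were measured. Motifs were searched on both strands of each sequence. The STAT motif TTCNNNGAA matched the Irf8 sequence at 2 places, TTCTCGGAA beginning 171 bases before the start and TTCAGAGAA beginning 153 bases before it, and at least 1 match occurs in 8.30% of 32851 windows of this length around gene starts. The first match holds a measured CpG, chr8:120736191, described with the island. No match in the Irf8 sequence was found for the core of the interferon-stimulated response element (in 3.44% of the start windows), the PU.1 core GAGGAA (28.3%), the C/EBP core TTGCNNAA (10.8%), the E box CANNTG (72.3%) or the AP-1 motif TGANTCA (7.81%). These matches are letters in a window and no evidence of binding.

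The libraries held between 112671408 and 157223205 methylation calls, and a measured CpG of the window had a median of 70 calls per library, against 84 over all measured CpGs. The library labelled CD11b-negative 2 stood apart from its group. Its label was kept as deposited, and whether its label and sort are as stated was not tested. Over all measured CpGs its methylation correlated with that of CD11b-positive 2 at r = 0.994, with the other CD11b-positive libraries at 0.955 to 0.962 and with the other CD11b-negative libraries at 0.872 to 0.916 (a description over CpGs, which share a library). The pair CD11b-negative 2 and CD11b-positive 2 differed outside the 95% limits of counting noise at 8.50% of 261833 CpGs of middle level. Counting noise alone passes such limits at a share of CpGs. The nearest pairs within a group were close to this, at 7.92% and 8.95%. These shares cannot tell whether CD11b-negative 2 and CD11b-positive 2 hold different cells, and both were kept as deposited. Calls on 8 genes of the Y chromosome, per 1000000 autosomal calls, numbered 28.5 ± 8.58 in CD11b-positive, 18.2 ± 14.8 in CD11b-negative and 10.9 ± 5.66 in PBS (SD, n = 4 each). Values of CD11b-negative include its library 2 unless said otherwise, and only some comparisons with CD11b-negative are also given without it.

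Across the locus, CD11b-positive cells were more methylated than PBS cells at many CpGs of the flanks and gene body, less methylated at a few, and close to PBS in the island. A CpG, tile or stretch was called when its Benjamini-Hochberg adjusted p over all features of its kind was under 0.05 and the group means differed by at least 10 percentage points. Of the 165 CpGs, 47 were called, 39 higher and 8 lower in CD11b-positive. This is 28.5% of the locus, against 16.7% of all measured CpGs, and the higher calls are 23.6% against 13.3%, the lower ones 4.85% against 3.48%. The libraries of both groups did not overlap at 68 of the 165 CpGs, against 22.7% of all CpGs, and at 43 of the 47 called ones. The median difference was 2.51 points over the window and 0.343 points over all CpGs. The 39 gains ran from 10.9 to 48.6 points with a median of 32.1, and 22 were at least 30 points. The count of 47 fell to 30 without PBS 1 and to 31 without PBS 4, was 21 when all 12 libraries shared 1 fit, and was 1 with the Y share added to the model. Every CD11b-positive library had a higher Y share than every PBS library, so that fit can hardly separate the term from the group.

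**Figure D1:**
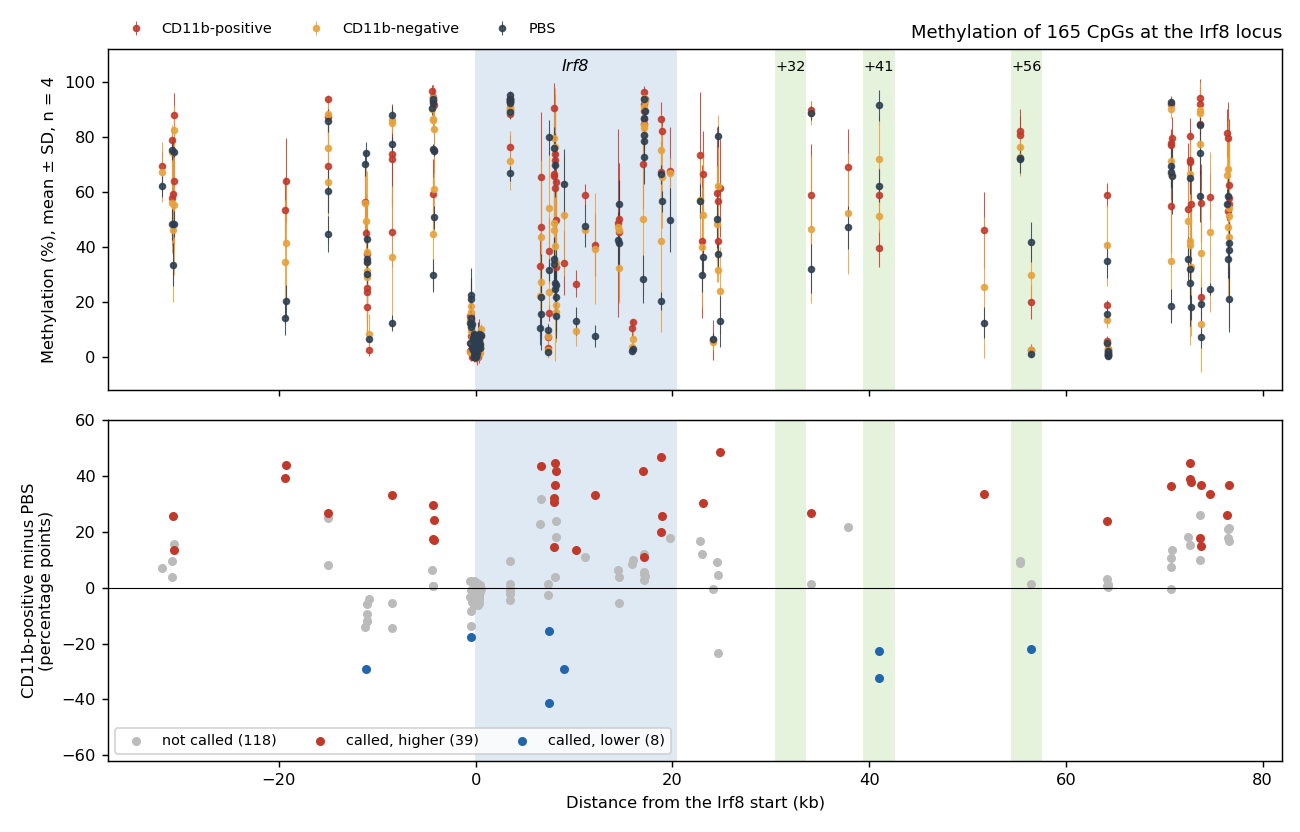
Methylation of the 165 measured CpGs against the distance from the Irf8 start in kb. The upper panel gives the mean ± SD of each group (n = 4) in percent, the lower panel the CD11b-positive minus PBS difference in percentage points with the 39 higher and 8 lower calls coloured. Blue shading marks the gene and green shading the 3 enhancer windows. Most of the island at 0 kb stays near the floor in all 3 groups, and gains lie on both sides of it. Its upstream edge is higher, where single CpGs reach a PBS mean of 22.4%.

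By stretch, upstream CpGs were called 10 times higher and 1 time lower, gene-body CpGs 14 and 3 times, and downstream CpGs 15 and 3 times. In the island 1 of 47 CpGs was called, and it was lower. The level in PBS moves with these counts. Among CpGs at 20 to 80% in PBS, 39.2% of the 74 in the window were higher in CD11b-positive and 9.46% lower, near the 40.3% and 11.7% of all CpGs at that level. Among CpGs under 20% in PBS, 14.1% of the 71 in the window were higher, against 4.96% of all such CpGs, and 0% were lower, against 0.29%. Among those at 80% or more in PBS, 0 of 20 were higher and 1 was lower, against 1.93% and 2% of all such CpGs. So the locus counts lie close to the background at middle levels, and above it for gains at low-level CpGs; no test of that difference was made.

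The Irf8 island was nearly unmethylated in every library. Over its 47 CpGs, methylation was 4.38%, 1.49%, 4.2% and 3.45% in CD11b-positive libraries 1 to 4, 4.80%, 2.09%, 4.21% and 5.16% in CD11b-negative libraries 1 to 4, and 5.60%, 4.14%, 6.51% and 5.18% in PBS libraries 1 to 4 (2730 to 4106 calls per library). The lowest values are those of CD11b-positive 2 and CD11b-negative 2, and the CD11b-positive and PBS libraries overlapped. CD11b-positive was 1.98 points below PBS, with an adjusted p of 0.0272 over 8167 stretches of this kind, too small a difference to be called (14.5% of these stretches were). With the Y share as a term the sign turned, to 1.07 points above PBS. The 37 CpGs of the densest part averaged 2.78% ± 1.46 in CD11b-positive, 3.76% ± 2.03 in CD11b-negative and 5.05% ± 1.15 in PBS (SD, n = 4 each).

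Single CpGs of the start sequence were as low. None of its 23 measured CpGs was called, and their means ran from 0% to 7.81% in CD11b-positive, from 0.625% to 5.29% in CD11b-negative and from 0% to 8.23% in PBS. At chr8:120736365, the measured CpG nearest the start, no methylated call was seen in 3 of 4 CD11b-positive libraries (1.64% in library 4) or in any PBS library, at 31 to 76 calls per library. The CpG inside the first STAT match, chr8:120736191, was at 2.11% ± 2.95 in CD11b-positive, 1.08% ± 1.37 in CD11b-negative and 3.69% ± 1.68 in PBS (SD, n = 4 each), with an adjusted p of 0.473 for CD11b-positive against PBS. At these depths a difference of a few points at a single CpG was not detectable. The island's only called CpG lies upstream of the start, at -0.428 kb from the start, chr8:120735930. It was methylated at 0%, 0%, 6.0% and 13.5% in CD11b-positive, 21.2%, 0%, 23.9% and 20.6% in CD11b-negative, and 25.5%, 11.1%, 34.2% and 18.9% in PBS. CD11b-positive 4 overlapped PBS 2 there, the difference was -17.5 points with an adjusted p of 0.0238, and single libraries rested on 32 to 56 calls with Wilson 95% intervals 6.42 to 28.9 points wide, which cover counting error only.

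The flanks and the gene body were methylated at intermediate levels. Upstream methylation was 63.7%, 68.0%, 58.9% and 62.6% in CD11b-positive, 55.8%, 66.7%, 58.1% and 52.0% in CD11b-negative, and 50.8%, 55.3%, 53.8% and 54.4% in PBS. All CD11b-positive libraries were above all PBS libraries, by 9.77 points between the means (adjusted p = 0.00469), just short of the 10 points a call needs. Leaving out CD11b-positive 3, PBS 2 or PBS 4 took it to 11.2, 10.3 or 10.1 points, past that limit. The background was 34.4% of 16028 upstream stretches called, with a median difference of 6.01 points. In 62.8% of these stretches the CD11b-positive and PBS libraries did not overlap.

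In the gene body, methylation was 69.4%, 70.0%, 67.1% and 67.3% in CD11b-positive, 70.1%, 69.6%, 63.8% and 67.0% in CD11b-negative, and 60.1%, 63.1%, 62.3% and 60.8% in PBS. In these values, weighted by calls, CD11b-positive and CD11b-negative libraries overlapped, and all 8 were above all 4 PBS libraries. CD11b-negative and PBS libraries did not overlap in 8.68% of all gene bodies. The CD11b-negative difference from PBS was 6.04 points and was not called (adjusted p = 0.619 by the quasi-binomial test). The values depend on where the calls fell. The tile at chr8:120739001-120740000 held 1677 to 4299 calls per library, where the gene body held 4828 to 8664. That tile averaged 89.7% in CD11b-positive, 89.0% in CD11b-negative and 89.3% in PBS. CD11b-positive exceeded PBS by 6.88 points (adjusted p = 0.00346, under the 10 points). Of 13913 gene bodies, 29% were called and 53.8% had no overlap between CD11b-positive and PBS libraries, with a median difference of 4.24 points. When each CpG counted equally instead of by its calls, the difference was 12.4 points. With equal weight CD11b-positive also lay further above CD11b-negative than the 0.834 points seen by calls.

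Downstream of Irf8, methylation was 51.3%, 56%, 49.3% and 50.3% in CD11b-positive, 36.7%, 57.0%, 38.1% and 34.5% in CD11b-negative, and 36.3%, 42.2%, 40.5% and 39.8% in PBS (3859 to 5704 calls per library). Every CD11b-positive library was above every PBS library, and CD11b-negative 2 sat with CD11b-positive while the other CD11b-negative libraries sat with or below PBS. The difference between CD11b-positive and PBS was 12.1 points (adjusted p = 0.00145) and was called, as were 30% of 18901 downstream stretches, whose median was 5.56 points. Ranked by gain, the Irf8 stretch was number 4252 of these, and CD11b-positive and PBS libraries did not overlap in 62.9% of them. With the Y share as a term the Irf8 difference was 5.87 points (adjusted p = 0.203).

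**Figure D2:**
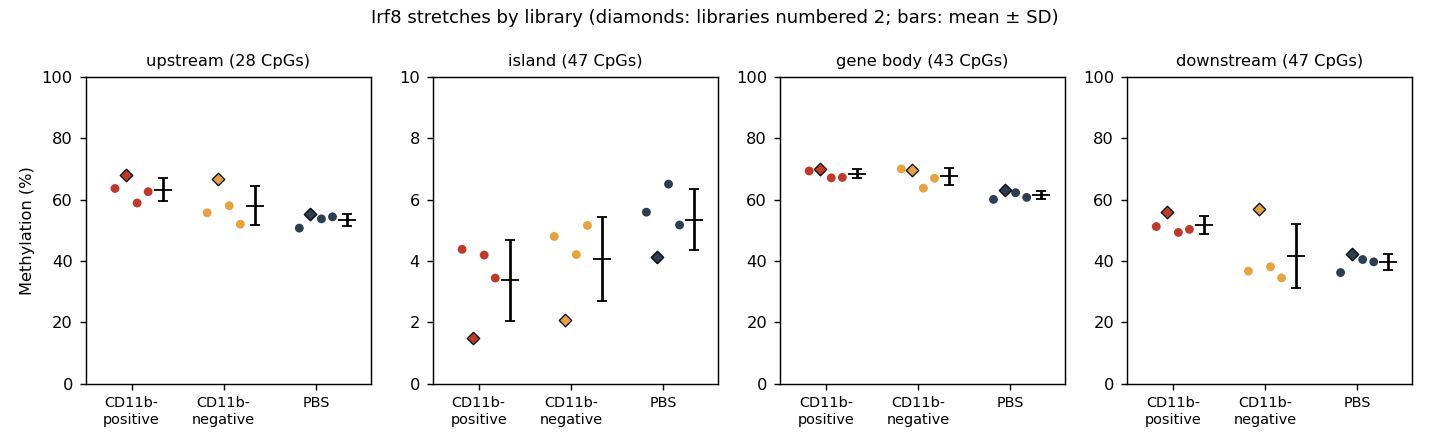
Methylation in percent of the 4 stretches of the Irf8 locus, 1 point per library, with the mean ± SD (n = 4) beside each group. Diamonds are the libraries numbered 2, and the island axis ends at 10%. In the downstream panel the CD11b-negative diamond at 57.0% lies with the CD11b-positive libraries, which run from 49.3% to 56%.

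The 8 CpGs lower in CD11b-positive fell at 6 places: 1 upstream, the island CpG above, 2 places in the gene body and 1 in each of the +41 and +56 kb enhancer windows. The largest loss was in the gene body at chr8:120743778, 7.42 kb from the start. It was methylated at 48.5%, 21.0%, 41% and 43.6% in CD11b-positive, 45.0%, 30.2%, 75.3% and 67.0% in CD11b-negative, and 88.6%, 74.8%, 75.5% and 80.6% in PBS. CD11b-positive was low in every library and PBS high in every library, while CD11b-negative split into 2 low and 2 high libraries. The difference was -41.4 points (adjusted p = 0.00130), from 88 to 198 calls per library with Wilson intervals 13.3 to 19.1 points wide. A CpG 8 bases before it, chr8:120743770, averaged 16.1% ± 2.93 in CD11b-positive, 23.8% ± 7.64 in CD11b-negative and 31.7% ± 4.03 in PBS (SD over 4 libraries), so CD11b-positive minus PBS was -15.6 points (adjusted p = 0.0185). CpGs this close can lie on the same reads and are not independent.

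Another gene-body CpG, chr8:120745373, was at 29.8%, 19.5%, 44.5% and 42.3% in CD11b-positive, 55.4%, 19.4%, 63.8% and 67.8% in CD11b-negative, and 71.7%, 44.6%, 71.0% and 64.9% in PBS. CD11b-positive 3 came within 1 point of PBS 2 without reaching it. The difference was -29.0 points (adjusted p = 0.00832; 0.0586 when all 12 libraries shared 1 fit). Upstream, chr8:120725223 was at 51.7%, 26.0%, 43.8% and 59.1% in CD11b-positive, 45.9%, 24%, 68.8% and 59.7% in CD11b-negative, and 70.5%, 74.3%, 80% and 72.0% in PBS. All PBS libraries lay above all 8 others, and the difference of CD11b-positive from PBS was -29.1 points (adjusted p = 0.00498). CD11b-negative and PBS libraries did not overlap at 3.86% of all CpGs, and their difference was not called here.

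Both measured CpGs of the +41 kb enhancer window, which reaches 1500 bp on each side, were lower in CD11b-positive than in PBS. At chr8:120777353, 40.995 kb from the start, methylation was 64.2%, 44.8%, 64.2% and 63.2% in CD11b-positive, 74.0%, 49.2%, 80.8% and 84.9% in CD11b-negative, and 97.4%, 89.7%, 84.7% and 94.4% in PBS. The site was almost fully methylated in PBS and partly methylated in CD11b-positive, with no overlap. CD11b-negative 1, 3 and 4 lay above every CD11b-positive library, and library 2 below 3 of the 4. The difference was -32.4 points (adjusted p = 0.00144), on 95 to 212 calls per library with Wilson intervals 6.45 to 18.9 points wide. At chr8:120777369, 16 bases further, methylation was 46.9%, 30.3%, 40.7% and 41.2% in CD11b-positive, 57.1%, 43.2%, 52.3% and 53.3% in CD11b-negative, and 54.3%, 63.2%, 68.7% and 63.4% in PBS. Again no CD11b-positive library reached a PBS library, and the difference was -22.6 points (adjusted p = 0.00896). Over both, the window averaged 49.4% ± 8.04 in CD11b-positive, 61.8% ± 10.5 in CD11b-negative and 77.0% ± 1.31 in PBS (SD, n = 4 each). These 2 CpGs are all that was measured of the 43 listed in that window, so they describe a point in the enhancer and not its whole length.

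Of the +56 kb window, 4 of 45 listed CpGs were measured, and they did not move together. The CpG chr8:120792855 was at 18%, 12.7%, 26.8% and 22.9% in CD11b-positive, 34.5%, 13.4%, 34.2% and 37.9% in CD11b-negative, and 50%, 34.5%, 46.1% and 37.0% in PBS. CD11b-positive lay below PBS in every library, with a difference of -21.8 points (adjusted p = 0.00868). The other 3 were not called: the capital CpGs of the Gm33199 start sequence averaged 80.9% and 82.1% in CD11b-positive, 76.5% and 73.0% in CD11b-negative, and 72.1% and 72.4% in PBS, and chr8:120792793 was at 2.39% ± 2.49 in CD11b-positive, 2.61% ± 1.72 in CD11b-negative and 1.18% ± 1.11 in PBS (SD, n = 4 each). The whole window was therefore near level, at 47.0% ± 2.79 in CD11b-positive, 47.6% ± 2.44 in CD11b-negative and 49.6% ± 0.764 in PBS (SD, n = 4 each). Within 500 bp on each side of its centre, which leaves out the Gm33199 CpGs, CD11b-positive minus PBS was -10.4 points instead of -2.59. None of the 23 CpGs listed in the +32 kb window had enough calls in every library, so that enhancer was not analysed here.

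**Figure D3:**
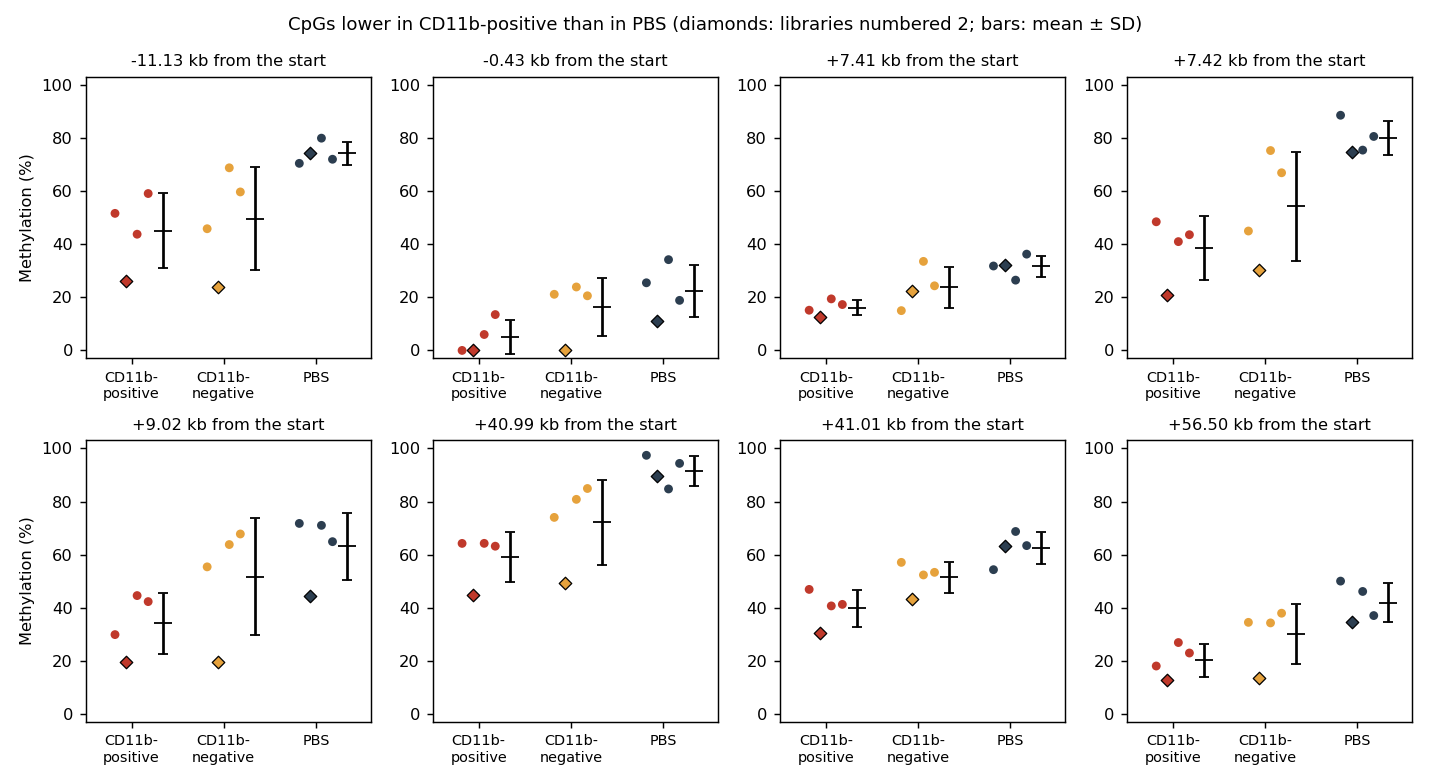
Methylation in percent of the 8 CpGs called lower in CD11b-positive than in PBS, 1 point per library, with the mean ± SD (n = 4) beside each group and the distance from the Irf8 start above each panel. Diamonds are the libraries numbered 2. At 40.99 and 41.01 kb, in the +41 kb window, no CD11b-positive point reaches a PBS point.

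Gains were larger and more widely spread. The largest was downstream at chr8:120761198, 24.84 kb from the start, where methylation was 73.9%, 79.3%, 42.9% and 50% in CD11b-positive, 20%, 47.1%, 17.9% and 11.1% in CD11b-negative, and 0%, 18.2%, 12.9% and 20.7% in PBS. The lowest CD11b-positive library was above the highest PBS library by more than 20 points. The difference was 48.6 points (adjusted p = 0.00529), although with 15 to 51 calls per library the Wilson intervals were up to 42.9 points wide. Deeper data stood behind chr8:120755199 near the end of the gene, at 63.8%, 82.1%, 55.7% and 68.2% in CD11b-positive, 38.0%, 90.0%, 22.6% and 17.8% in CD11b-negative, and 19.0%, 24.2%, 21.9% and 16.7% in PBS. PBS was low and tight, CD11b-positive high, and CD11b-negative ran from below the highest PBS library to above all CD11b-positive ones; CD11b-positive minus PBS was 47.0 points (adjusted p = 0.000537).

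The deepest of the large gains was upstream, chr8:120717052, with 178 to 317 calls per library. It was at 71.0%, 82.7%, 52.0% and 51.0% in CD11b-positive, 40.4%, 72.5%, 29.9% and 23.4% in CD11b-negative, and 11.8%, 25.2%, 19.4% and 24.3% in PBS. No CD11b-positive library came near the PBS range, and the difference was 44.0 points (adjusted p = 0.000734). Gene-body CpG chr8:120744442 gained 44.8 points, at 71.8% ± 23.8 in CD11b-positive, against 27.0% ± 9.96 in PBS (SD, n = 4 each; adjusted p = 0.0220), and lost its call without CD11b-positive 1, PBS 1 or PBS 3 (adjusted p = 0.0565, 0.0543 and 0.0605). Downstream CpG chr8:120808990 gained 44.6 points, at 71.7% ± 11.1 in CD11b-positive, against 27.0% ± 15.8 in PBS (SD, n = 4 each; adjusted p = 0.00959). It lost its call when all 12 libraries shared 1 fit (adjusted p = 0.0628), as the gene-body CpG did (adjusted p = 0.0615).

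Calls summed over 1 kb tiles with at least 3 measured CpGs gave 22 tiles in the window, of 87020 in all. Of these, 13 were called between CD11b-positive and PBS, 11 higher and 2 lower, or 59.1% against 36.3% of all tiles. The higher tiles were 50% of the locus, against 32.5% of all tiles (3.76% of all tiles were lower), and the median difference was 13.7 points against 5.0. Higher tiles lay upstream (2), in the gene body (3) and downstream (6), and 5 of the downstream ones lay between 70.6 and 75.6 kb from the start, past the last enhancer window. CD11b-positive and PBS libraries did not overlap in 14 of the 22 tiles, against 56.2% of all tiles. edgeR's quasi-likelihood test called 12 of the 22 tiles, against 35.4% of all tiles.

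The largest tile gain was in the gene body at chr8:120742001-120743000, where methylation was 62.7%, 58.4%, 36.2% and 37.6% in CD11b-positive, 18.2%, 57.8%, 28.4% and 19.1% in CD11b-negative, and 2.1%, 20%, 29.0% and 12.7% in PBS. The groups CD11b-positive and PBS did not overlap, and they differed by 32.8 points (adjusted p = 0.0126) on 33 to 117 calls per library. Next to it, chr8:120743001-120744000 moved the other way: 17.7%, 12.3%, 17.1% and 17.8% in CD11b-positive, 15.4%, 17.0%, 31.5% and 24.1% in CD11b-negative, and 33.0%, 29.3%, 28.3% and 32.9% in PBS. It holds the CpG of the largest loss and fell by 14.7 points (adjusted p = 0.00283). The following tile, chr8:120744001-120745000, was again higher, at 66.3% ± 10.3 in CD11b-positive, against 39.2% ± 7.81 in PBS (SD, n = 4 each; 27.1 points, adjusted p = 0.00569). Within 3 kb of the gene body, a tile lower in CD11b-positive thus lay between 2 higher ones.

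At the end of the gene, chr8:120755001-120756000 was at 75.5%, 89.0%, 72.0% and 78.6% in CD11b-positive, 56.5%, 92.1%, 50.8% and 44.2% in CD11b-negative, and 44.4%, 50.8%, 47.8% and 48.4% in PBS. PBS libraries lay within 7 points of each other and under every CD11b-positive library, with a difference of 30.9 points (adjusted p = 0.00172). The 5 far downstream tiles gained 13.5 to 29.7 points; in the tile at chr8:120808001-120809000, CD11b-positive averaged 69.6% ± 8.92, CD11b-negative 49.9% ± 24.6 and PBS 39.9% ± 8.68 (SD, n = 4 each; 29.7 points, adjusted p = 0.00628). The remaining downstream tile, chr8:120759001-120760000, was 20 points higher (adjusted p = 0.0488), but CD11b-positive 1 at 36% lay below all PBS libraries, and leaving out any library other than CD11b-positive 1 ended the call.

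Upstream, chr8:120721001-120722000 was at 83.6% ± 7.54 in CD11b-positive, against 63.7% ± 4.35 in PBS (SD, n = 4 each; 19.9 points, adjusted p = 0.0129), and chr8:120732001-120733000 at 82.8% ± 2.95 and 68.3% ± 1.77 (14.5 points, adjusted p = 0.00326). The other lower tile, chr8:120725001-120726000, was at 33.8% ± 10.6 in CD11b-positive and 48.4% ± 2.72 in PBS (-14.5 points, adjusted p = 0.0327), and its call was lost without CD11b-positive 2 or 3 or without any single PBS library (adjusted p of 0.0295 but -9.93 points without CD11b-positive 2, and 0.0522 to 0.0827 in the others). The tile of the gene start, chr8:120736001-120737000, with 41 CpGs, was at 2.95% ± 1.06 in CD11b-positive, 3.49% ± 1.09 in CD11b-negative and 4.63% ± 0.697 in PBS (SD, n = 4 each). CD11b-positive minus PBS was -1.68 points there (adjusted p = 0.00820, not called). The tile before it, chr8:120735001-120736000, at the upstream edge of the island, was at 7.56% ± 3.90 in CD11b-positive, 11.8% ± 6.20 in CD11b-negative and 14.4% ± 5.68 in PBS (SD, n = 4 each, not called).

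**Figure D4:**
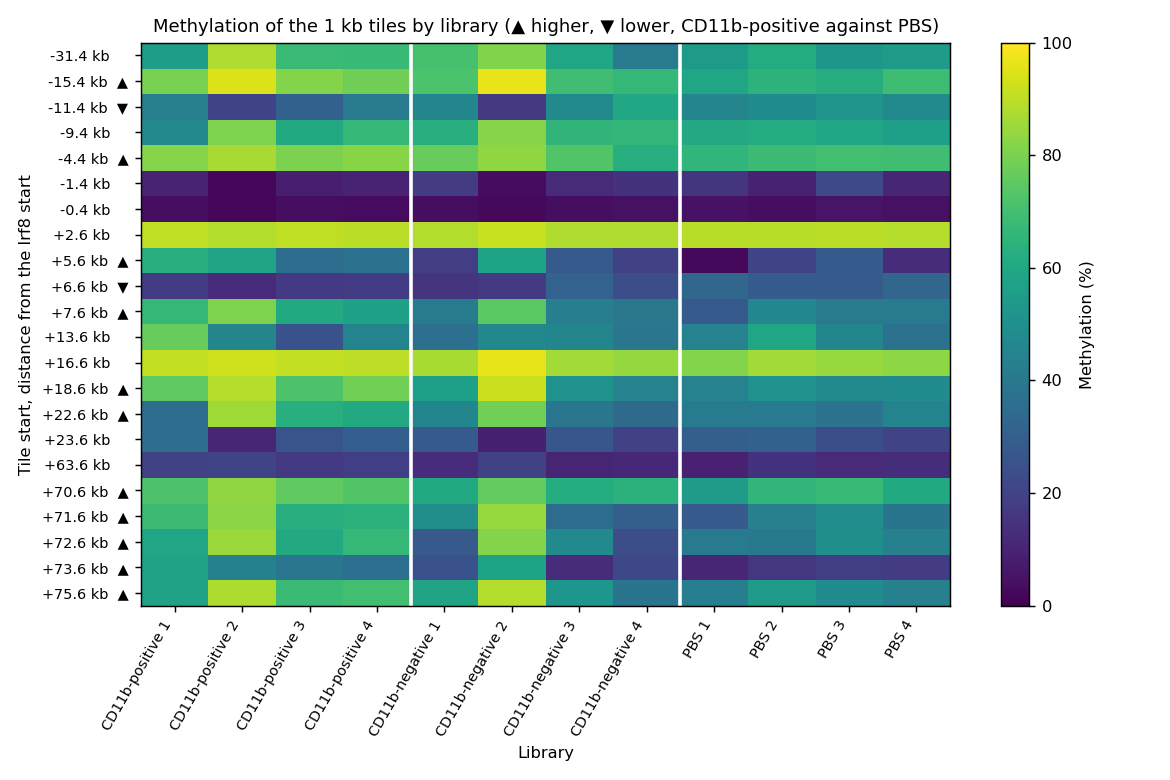
Methylation in percent (colour) of the 22 tiles of 1 kb, ordered by distance from the Irf8 start, in the 12 libraries. Triangles mark the 11 tiles called higher and the 2 called lower in CD11b-positive than in PBS. The column of CD11b-negative 2 looks like that of CD11b-positive 2, and the tile of the gene start is dark in every column.

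Between CD11b-negative and PBS, 0 of 165 CpGs were called by the quasi-binomial test, against 0% of all CpGs, and 13 had an unadjusted p under 0.05 (5.11% of all CpGs did). For tiles the count was also 0 of 22, with 0 at an unadjusted p under 0.05 (9.92% of all tiles), by the quasi-binomial test as by edgeR. The stretches differed by 4.57 points upstream, -1.29 in the island, 6.04 in the gene body and 1.91 downstream, with adjusted p from 0.562 to 0.952. Without CD11b-negative 2 the downstream difference was -3.22 points. These p-values do not show that the groups are alike, since CD11b-negative libraries varied widely: the downstream SD was 10.4 points in CD11b-negative and 2.50 in PBS.

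Between CD11b-positive and CD11b-negative, 0 of 165 CpGs were called by the quasi-binomial test, against 0% of all CpGs, and 19 had an unadjusted p under 0.05 (6.92% of all CpGs did). Of the tiles 0 of 22 were called, with 2 at an unadjusted p under 0.05, against 10.9% of all tiles (edgeR called 0, with 0 under 0.05). The counts depend on the fit: with the replicate number as a block, some CpGs and tiles of the window were called (given with the processing). The labels do not say whether the numbers pair the libraries. The downstream stretch differed by 10.2 points (adjusted p = 0.211). Library CD11b-negative 2 carried much of the spread: at the 47 CpGs called between CD11b-positive and PBS it was at or past the nearest CD11b-positive library in 45, and CD11b-negative 1, 3 and 4 in 12, 1 and 2. On a scale where the PBS mean is 0 and the CD11b-positive mean 100, the median place over those CpGs was 34.2, 136, 11.8 and -5.56 for CD11b-negative 1 to 4.

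Without CD11b-negative 2, 16 of the 165 CpGs were called between CD11b-positive and the other CD11b-negative libraries, 14 higher and 2 lower, with 7.32% of all CpGs called. That library was singled out by its methylation in these data, which resembled CD11b-positive, so the p-values here do not allow for that choice. The largest gain was at chr8:120808990, 71.7% in CD11b-positive against 23.3% ± 13.2 in CD11b-negative (SD, n = 3; 48.4 points, adjusted p = 0.0445). The enhancer CpG chr8:120777353 was among the losses, at 59.1% in CD11b-positive against 79.9% ± 5.50 in CD11b-negative (SD, n = 3; -20.8 points, adjusted p = 0.0397), and the gene-body CpG chr8:120745373 was the other (-28.3 points, adjusted p = 0.0273). Of the tiles 6 were called, all higher (20.4% of all tiles were called), and the downstream stretch was 15.3 points higher (adjusted p = 0.00664).

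The Y calls moved with methylation at the locus. Mean methylation of the 165 CpGs was 43.1%, 46.4%, 41.8% and 41.9% in CD11b-positive, 37.6%, 46.1%, 35.6% and 34.2% in CD11b-negative, and 33.0%, 36.8%, 36.3% and 35.1% in PBS. The corresponding Y calls per 1000000 autosomal calls were 25, 41.3, 23.8 and 23.8 in CD11b-positive, 12.9, 40.2, 11.1 and 8.64 in CD11b-negative, and 5.52, 18.6, 8.25 and 11 in PBS. The 5 libraries with the most Y calls are the 5 with the highest methylation, and they are the 4 CD11b-positive libraries and CD11b-negative 2. With the Y share as a term, 1 CpG and 0 tiles of the window were called between CD11b-positive and PBS. Every CD11b-positive library had more Y calls than every PBS library, so this fit can hardly separate the Y share from the group. The part of the Y share in the differences was not tested.

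**Figure D5:**
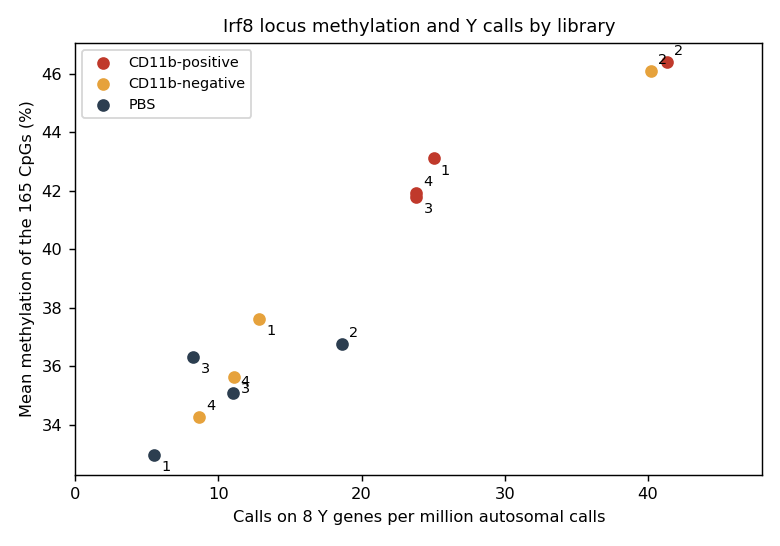
Mean methylation in percent of the 165 measured CpGs against calls on 8 Y genes per 1000000 autosomal calls, 1 point per library, with the library number beside it. CD11b-negative 2 (40.2, 46.1%) lies beside CD11b-positive 2 (41.3, 46.4%), and the other CD11b-negative libraries, at 34.2% to 37.6%, lie close to PBS, at 33.0% to 36.8%.

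A list of 51 partners, regulators and targets of IRF8 was read from the same genome-wide tests. Of 40 measured gene ends (1000 bp on each side of the end with more measured CpGs), 2 were higher and 1 lower in CD11b-positive than in PBS, against 11% of all gene ends called. Their median difference was 0.0148 points, and 0.0715 over all gene ends. Of 41 measured gene bodies, 10 were higher and 0 lower, against 25.9% and 3.18% of all gene bodies, with a median of 5.25 points against 4.24 over all. The share of higher gene bodies, 10 of 41, is thus near the background. The count of 10 was 6 without CD11b-positive 2 or without PBS 1 and 5 without PBS 4.

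Among the partners, Spi1, which encodes PU.1, was higher at the measured gene end, whose side (start or stop) the tables used here do not give: 89.5% ± 4.03 in CD11b-positive, 82.3% ± 5.90 in CD11b-negative and 78.6% ± 0.586 in PBS (10.9 points, adjusted p = 0.0123). Its gene body was at 45.9% ± 2.49 in CD11b-positive and 48.6% ± 1.19 in PBS, with no call. The gene body of Batf3, the dendritic cell partner, was at 62.6%, 76.3%, 57.6% and 59.3% in CD11b-positive, 39.5%, 76.6%, 46.0% and 37.4% in CD11b-negative, and 33.8%, 42.9%, 36.2% and 43.4% in PBS. Every CD11b-positive library was above every PBS library, by 24.9 points between the means (adjusted p = 0.00320).

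Of the 18 regulators with a measured gene body, 5 were higher, near the 25.9% of all gene bodies that were. They were Cebpe, a transcription factor of granulocyte maturation (16.4 points), Myd88, the adaptor of TLR9 (14.1), Runx1 and Cbfb, the subunits of core-binding factor (13.7 and 12.1), and Flt3, a growth factor receptor of progenitors (11.2), with adjusted p from 0.00422 to 0.0491. Cebpe and Myd88 had overlapping libraries. Stat3, whose protein the decoy binds, was at 0.571% ± 0.0741 in CD11b-positive and 0.595% ± 0.0895 in PBS at its start, and its gene body differed by 6.58 points (adjusted p = 0.0161, not called). Tlr9 was at 10.7% ± 3.33 in CD11b-positive and 4.66% ± 1.12 in PBS over its gene body, with no call.

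Of the 15 targets with a measured gene body, 4 were higher, near the 25.9% of all gene bodies that were. Among them were Cybb, the catalytic subunit of the phagocyte oxidase (25 points), and Csf1r, the receptor for the macrophage growth factor M-CSF (23.8). Ciita, the master regulator of MHC class II, was another (21.5). Cybb lies on the X chromosome and was measured at 3 CpGs, with 108 to 335 calls per library (adjusted p = 0.0465 by the quasi-binomial test). The measured gene end of Ciita, also of unknown side, was higher too, by 17.0 points (adjusted p = 0.0141). The start of Ptpn13, a protein tyrosine phosphatase, was lower, at 30.3%, 1.8%, 34.4% and 36.9% in CD11b-positive, 42.9%, 1.1%, 59.7% and 62.9% in CD11b-negative, and 64.6%, 44.8%, 60.8% and 56.4% in PBS. The libraries numbered 2 of CD11b-positive and CD11b-negative were near 0 there, and the difference between CD11b-positive and PBS was -30.8 points (adjusted p = 0.0327), lost without PBS 1, where 1 gene end of the list was called.

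Lineage genes were read for the sort, since methylation holds no marker expression. Itgam, the gene of CD11b, was measured over 4 CpGs of its gene body, at 76.1% ± 8.67 in CD11b-positive, against 51.1% ± 3.72 in PBS (SD, n = 4 each; 25 points higher, adjusted p = 0.00301). Among gene bodies of the marker lists, calls in CD11b-positive against PBS were 2 of 4 myeloid, 4 of 4 T cell (3 higher, 1 lower), 0 of 1 B cell, 2 of 5 erythroid and 1 of 3 endothelial and stromal genes, where 29% of all gene bodies were called. At gene ends, 2 of 3, 2 of 3, 1 of 1, 3 of 4 and 2 of 2 were called for the same lists, where 11% of all gene ends were. Of these, the T cell gene Bcl11b and the stromal gene Cxcl12 were lower and the others higher. The largest was Rhd, an erythroid gene, at 59.9% ± 13.1 in CD11b-positive and 9.60% ± 3.63 in PBS at its start. The part of other cell types in the Irf8 differences was not tested.

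The genes whose gene-body methylation followed that of Irf8 most closely across the 12 libraries were Cacnb2 (Pearson r = 0.990), Plcl1 (0.982), Kcnj10 (0.976), Fyn (0.975) and Reep1 (0.972), among 10886 genes with at least 10 measured CpGs. The median r over all was 0.410 and 13.4% of genes had r over 0.8, and all points share the same 12 libraries. In each of these 5 genes, as in Irf8, the gene body was less methylated in PBS than in CD11b-positive and CD11b-negative, as for Cacnb2 at 67.2%, 66.0% and 56.9% in CD11b-positive, CD11b-negative and PBS. Genes picked by their correlation with Irf8 largely share its group pattern by that choice, and these values are weighted by calls.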

How the data were processed

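DNA methylation was measured by reduced representation bisulfite sequencing in 12 libraries, 4 per group. The deposited files hold counts of methylated and unmethylated calls per cytosine and strand, not normalised, per the file contents; the submitters' processing notes name build mm10 and, among the tools, Bismark, methylKit 1.20.0, cutadapt 2.7 and Trim Galore 0.6.4. How Bismark was set, whether duplicates were removed and how complete conversion was is not stated in the labels. Copies of a molecule can be counted more than once.

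Calls of both strands were summed, and CpGs of autosomes and X with at least 10 calls in all 12 libraries were kept. Methylated against unmethylated counts were fitted by a quasi-binomial logistic model with an F test on the 8 libraries compared. Its dispersion was moderated within bins of mean methylation (5, 20, 80 and 95%) by the method of limma's squeezeVar and kept at 1 or more. Adjustment was by Benjamini-Hochberg over all CpGs, all 1 kb tiles, or the same stretch, by coordinate, of every protein-coding gene. Calls required an adjusted p below 0.05 with 10 points of difference. The step was tested on simulated data. edgeR 4.0.16 on tiles and stretches, the replicate block, coverage of 5 and 20, other tile and window sizes, and leaving out libraries were alternatives; leaving out every library numbered 2, and stretches oriented by gene strand, were chosen after seeing the data. The computing used Python 3.11.15, scipy 1.17.1 and R 4.3.3.

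Genes and strands came from RefSeq tables of GRCm38.p6. Named were the 5 largest called gains and losses without overlap between groups, every called tile, the CpG and tile nearest the start, called list members and the 5 genes most like Irf8 in gene-body methylation; the remaining lower CpGs, the uncalled CpGs of the printed sequences and the marker genes were added after their values were seen. The values of 1 called list member are not reported here. The members and lists were chosen with earlier results of these data known. Replicate numbers were not taken as pairs, since the labels do not say that they are.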

Additional observations from a re-analysis of the deposited data

Results flagged for a closer look

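Of 102 groups of 4 libraries examined, 11 held a library far from the other 3 relative to the range of the group. Chance gives about 1 in 20 for independent groups. The groups here share libraries, many overlap, and some were chosen because they were called, so that rate does not apply to them. Of the 11 flagged values, 6 were CD11b-negative 2. It stood at 57.0% in the downstream stretch of Irf8 (others 34.5 to 38.1%), at 46.2% in the +41 kb window (others 65.5 to 69.1%), at 96.8% in the tile at chr8:120721001-120722000 (others 66.7 to 71.6%) and at 74.5% in the tile at chr8:120744001-120745000 (others 39.5 to 42.9%). Its Y calls per 1000000 autosomal calls were 40.2 (others 8.64 to 12.9) and its mean over all measured CpGs was 35.5% (others 32.1 to 32.5%).

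CD11b-positive 2 stood apart in 4 values. It was at 44.8% at the enhancer CpG chr8:120777353 (others 63.2 to 64.2%) and at 12.3% in the tile at chr8:120743001-120744000 (others 17.1 to 17.8%). Its Y calls were 41.3 (others 23.8 to 25) and its mean over all measured CpGs was 35.9% (others 34.2 to 34.5%). CD11b-positive 4 had 1.64% at chr8:120736365 (1 methylated call of 61), where the other 3 had 0%.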

How the results depend on the processing

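With the Y share as a term, calls between CD11b-positive and PBS were 1 CpG, 0 tiles, 0 gene bodies and 0 gene ends of the list, and 1 CpG between CD11b-negative and PBS. The downstream stretch was then 5.87 points (CD11b-positive minus PBS) and -2.90 (CD11b-negative minus PBS), the island 1.07 (CD11b-positive minus PBS) and 0.858 (CD11b-positive minus CD11b-negative), the gene body -0.371 (CD11b-positive minus CD11b-negative), and the tiles at chr8:120736001 and chr8:120759001 were 0.591 and -1.24. Between CD11b-positive and PBS, the Y share and the group can hardly be separated by such a fit. The cause was not tested.

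Correlations of deviations between libraries of the same number ran from -0.069 to 0.629 for CD11b-positive with PBS, from -0.091 to 0.686 for CD11b-negative with PBS and from 0.097 to 0.887 for CD11b-positive with CD11b-negative. Not every pair was over 0.1, so the numbers were not taken as pairs, and CD11b-positive 3 and 4 deviated more like PBS 1 than like the PBS library of their own number. With the replicate block, CD11b-positive against CD11b-negative gave 16 CpGs, 4 tiles, 1 list gene body and 1 list gene end, and CD11b-negative against PBS 1 CpG; CD11b-positive against PBS gave 49 CpGs and 12 tiles. Without every library numbered 2, CD11b-positive against CD11b-negative gave 21 CpGs, 7 tiles, 6 list gene bodies, 1 list gene end and a downstream difference of 13.9, and CD11b-negative minus PBS was -2.38 downstream. The share of all features called was not counted for these fits, nor for the other fits of this section unless given. These counts therefore have no background. With only CD11b-negative 2 left out, that comparison called 7.32% of all CpGs and 20.4% of all tiles.

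For CD11b-positive against PBS, 1 fit of all 12 libraries gave 21 CpGs, 5 list gene bodies and 0 list gene ends. Coverage of 20 gave 30 CpGs, 6 tiles (fewer features tested) and 13.4 points upstream. Adjusted p alone gave 25 of 41 list gene bodies and 11 of 40 list gene ends. It passed 54.9% of all gene bodies and 26.4% of all gene ends. The upstream (9.77), island (-1.98) and gene-body (6.88) stretches passed too, as did 66.3%, 30.9% and 54.9% of all such stretches. Equal weight for CpGs gave 12.4 points in the gene body, and 8.20 for CD11b-positive minus CD11b-negative. Within 500 bp, the +56 kb window gave -10.4, -5.29 (CD11b-negative minus PBS) and -5.15 (CD11b-positive minus CD11b-negative).

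Leaving out single libraries, CD11b-positive against PBS gave 30 to 50 CpGs, 11 to 14 tiles, 5 to 10 list gene bodies and 1 to 4 gene ends. Its stretches ran from 8.20 to 11.2 upstream, -2.38 to -1.35 in the island, 6.36 to 7.39 in the gene body and 10.6 to 12.9 downstream, and its enhancer windows from -29.6 to -23.6 at 41 kb and -3.53 to -1.36 at 56 kb; chr8:120736365 ran from 0 to 0.546, with 0 without CD11b-positive 4. CD11b-positive against CD11b-negative gave 0 to 16 CpGs, 0 to 6 tiles and 0 to 7 list gene bodies, and ran from 3.17 to 8.04 upstream, -1.35 to -0.0582 in the island, -0.443 to 1.65 in the gene body, 7.79 to 15.3 downstream, -17.6 to -8.47 at 41 kb and -1.77 to 0.671 at 56 kb. CD11b-negative against PBS gave 0 to 0 calls, and ran from 1.72 to 6.60 upstream, -1.69 to -0.628 in the island, 5.23 to 7.32 in the gene body, -3.22 to 4.27 downstream, -17.5 to -9.91 at 41 kb and -2.55 to -0.824 at 56 kb.

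Depth: 10 calls per library were enough for a CpG to enter, and 165 of 1399 listed CpGs of the window were deep enough in every library.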

Other observations

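The libraries differed in how much of the window they touched. CpGs with at least 1 call in the window numbered 493, 826, 729 and 586 in CD11b-positive 1 to 4, 522, 801, 461 and 394 in CD11b-negative 1 to 4, and 494, 395, 480 and 483 in PBS 1 to 4. All calls of the window together, including CpGs that were not measured in every library, were methylated at 51.4%, 54.2%, 50.1% and 49.7% in CD11b-positive, 46.3%, 53.4%, 43.8% and 44.6% in CD11b-negative, and 39.6%, 44.8%, 44.2% and 42.6% in PBS.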
